A study of Homo sapiens with 2 samples.

Results

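Regions of HMGB2 chromatin immunoprecipitation were examined at 5 genes linked to cell survival, the BCL2 family genes MCL1, BCL2L1 and BCL2A1, the microRNA gene MIR21, and its host gene VMP1. HMGB2, of the high mobility group box family, is a chromatin protein that bends the DNA it binds. IMR90 human lung fibroblasts infected with RAS, an oncogene that drives them into the lasting arrest of senescence, gave 1 library, and growing control cells gave 1 library. Both were taken at day 2 from cells kept in 2% oxygen, with the same rabbit antibody and 10 ng of precipitated DNA, and neither the RAS construct nor its promoter is named in the labels. The authors deposited 2 lists of hg19 regions called in senescent against growing cells, 1 of broad and 1 of narrow regions. That they mark more HMGB2 in senescent cells rests on the list names, which put senescent first, and could not be checked from the deposited positions.

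The members were all regions of either list within 10 kb of 4 gene spans, which hold the 5 genes. These were 4 of the 3156 regions, 3 of the 364 broad and 1 of the 2792 narrow regions, and they lay at MCL1 and at VMP1 with MIR21. No region of either list lay within 10 kb of BCL2A1 or BCL2L1. The genes were chosen by the positions and widths of the deposited regions. The presence and the widths of regions at MCL1 and VMP1 are therefore a description and were given no test. As a background, hg19 was tiled with windows as long as each span with its 10 kb flanks, up to the last region of each chromosome, and broad regions wider than the smallest width of 500 bp were called wide. Of windows of 25.2 kb, the size for MCL1, 0.284% held a broad region, 0.0382% a wide one and 2.31% a narrow one. Of windows of 154 kb, the size for VMP1 with MIR21, 1.66% held a broad region, 0.203% a wide one and 12.9% a narrow one. For BCL2A1 (30.4 kb) these shares were 0.342%, 0.0432% and 2.76%, and for BCL2L1 (78.5 kb) 0.862%, 0.106% and 6.89%. Since the regions chose the loci, nothing is read from 2 of 4 loci with a broad region, both of them wide, or from 1 with a narrow one. The windows take in assembly gaps and stretches without genes. The lists hold positions only. No read count, score or fold is given. How deeply each library was sequenced and how far the conditions differ at any region are therefore unknown, and with 1 library per condition no region has a replicate check.

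Proteins of the BCL2 family decide whether the outer membrane of the mitochondrion is opened in apoptosis. MCL1, the BCL2L1 product BCL-XL and the BCL2A1 product BFL1 hold back the pore-forming members BAX and BAK, and senescent cells are known to lean on such guardians to stay alive. MCL1 is a short-lived protein that must be made continually, and BCL2A1 is a known target of the transcription factor NF-kB. miR-21 is an abundant microRNA that represses tumour suppressor transcripts such as PDCD4, and its hairpin lies at the downstream end of VMP1, a gene for a membrane protein of the endoplasmic reticulum that acts in autophagy.

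The product of MIR21 is shown because the VMP1 region lies past the end of the span that holds this gene. In the RefSeq hairpin below, capitals mark the mature miR-21-5p. In the mature sequences, capitals mark the seed, bases 2 to 8, through which a microRNA pairs with its targets. Among 2545 mature entries of the RefSeq table for GRCh38.p14, only miR-590-5p, from a gene on chromosome 7, had the same seed. The 2 mature sequences matched at 8 positions of 22 when aligned from their 5′ ends.
MIR21 hairpin: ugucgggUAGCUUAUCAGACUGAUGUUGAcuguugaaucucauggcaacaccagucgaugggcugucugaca
hsa-miR-21-5p: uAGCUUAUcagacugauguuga
hsa-miR-590-5p: gAGCUUAUucauaaaagugcag
The hairpin is 72 bases long, on the plus strand at chr17:59841266-59841337 of GRCh38.p14, and miR-21-5p takes up its bases 8 to 29. These positions belong to another build than the regions and were not set against them.

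At MCL1, 2 broad regions lay downstream of the gene and none lay inside it or upstream. The MCL1 span was chr1:150547027-150552214 in hg19. That the gene is read from the minus strand was taken from background knowledge and not from the files or tables used here, and the downstream side of each MCL1 region rests on it. The nearer region, chr1:150544166-150545250, was 1084 bp wide and began 1777 bp past the downstream end of the span. The farther region, chr1:150539847-150543283, was 3436 bp wide and began 3744 bp past that end. The far edge of the pair was thus 7180 bp from the gene. Neither region touched the span, which runs from the start to the end of the gene.

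The 2 MCL1 regions were separated by 883 bp. Their summed width was 4520 bp, which comes to 87.1% of the length of the MCL1 span. Of the 53 wide regions, 6 had another broad region within 1 kb, in 3 pairs, and the MCL1 regions were one of these pairs. Further pairs of wide regions lay just over this limit, 1115 bp apart on chromosome 22, 1156 bp on chromosome 10 and 1397 bp on chromosome 19. When broad regions within 1 kb were joined, the MCL1 stretch spanned 5403 bp with its gap. By width it was then 2nd of the 358 stretches, after one of 7817 bp. That rank depends on the 1 kb limit, which lies just above the 883 bp gap. The pairs on chromosomes 10 and 19 stayed unjoined, though each covers a longer stretch than the MCL1 pair from first start to last end. A limit that joined them would rank MCL1 lower, and no other limit was tried. The lists do not show whether the gap between the MCL1 regions holds a lower signal or was split by the calling.

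No narrow region accompanied the MCL1 pair. The nearest one, chr1:149930286-149930550, lay 609297 bp from the farther region and 613616 bp from the nearer. Of the 53 wide regions, 32 held no narrow region, and the median distance from these 32 to the nearest narrow region was 170 kb. The MCL1 regions were at places 9 and 8 when the wide regions were ordered from the farthest to the nearest narrow region, and the largest distance was 1170 kb. The next broad region lay 10.5 Mb upstream of the gene at chr1:161019010-161019510, and the next on the downstream side 37.3 Mb away. Upstream distances of many megabases are not particular to MCL1, since 364 broad regions are spread over the genome. The nearest broad region upstream lay 19.6 Mb from VMP1 with MIR21 and 18.5 Mb from BCL2L1, but only 0.616 Mb from BCL2A1. The 37.3 Mb on the downstream side of MCL1 was longer than these, and how often such a stretch occurs was not counted.

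At VMP1 with MIR21, 1 broad and 1 narrow region lay downstream of the genes. Both genes are read from the plus strand, and their joint span was chr17:57784863-57918698 in hg19. The broad region, chr17:57919408-57921978, was 2570 bp wide, began 710 bp past the end of the span and reached 3280 bp past it. No region lay inside the 133835 bp of the span or within 10 kb upstream of the VMP1 start. The hg19 position of the hairpin within the span was not used here. In the RefSeq gene table for GRCh38.p14, VMP1 runs on beyond the hairpin, so whether the region meets a longer downstream end of VMP1 depends on the annotation and was not analysed here.

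The narrow region, chr17:57921091-57921355, had the 264 bp of every narrow region and lay whole inside the broad one. It began 1683 bp after the start of the broad region and ended 623 bp before its end, on the side away from the genes. Its centre stood at 70.6% of the broad width, an offset of 20.6% of the width from the middle. Across the 20 wide regions that held exactly 1 narrow region, this one included, the median offset was 7.09%, and in 6 of them the offset was larger than at VMP1. The narrow region was thus farther from the middle than in most of these regions. Their widths ran from 626 to 6140 bp and were not matched to the 2570 bp at VMP1. A narrow region lying whole inside a wider region has more room to be off centre, as a share of width. Both calls came from the same 2 libraries, so the narrow region is no independent support for the broad one.

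The next broad regions on chromosome 17 lay 4.31 Mb downstream of the span at chr17:62224354-62224854 and 19.6 Mb upstream at chr17:38173682-38175908. The nearest narrow region on the upstream side, chr17:57649548-57649812, lay 135 kb from the VMP1 start and stood at place 2326 of the narrow list.

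**Figure D1:**
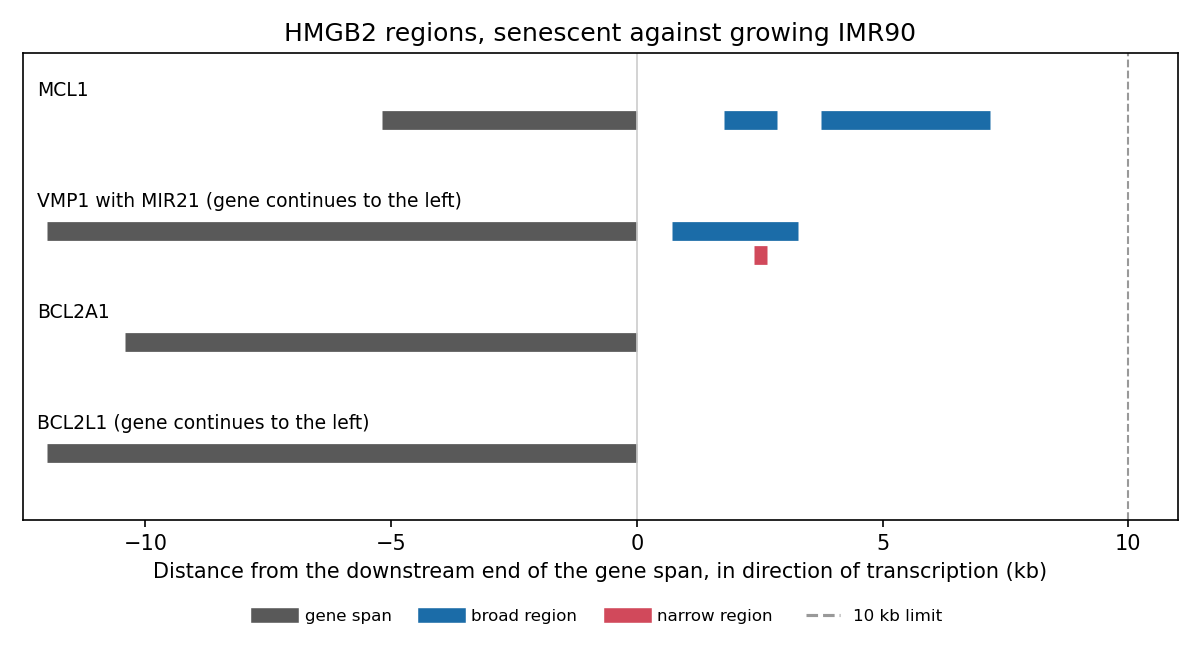
Regions within 10 kb of the 4 gene spans, drawn along the direction of transcription, with distance in kb from the downstream end of each span on the x axis and 1 row per locus. Grey bars are gene spans, cut at the left for the long genes, blue bars broad regions and the red bar the narrow region. The 3 broad regions and the narrow region all lie to the right of a gene span, at 710 to 3744 bp. The rows of BCL2A1 and BCL2L1 hold none.

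The 3 broad regions were wide and stood early in the deposited list. The farther MCL1 region was 5th widest of 364 and stood at place 10, the VMP1 region was 9th widest and stood at place 8, and the nearer MCL1 region was 24th widest and stood at place 30. The 311 regions of the list that were not wide all had 500 bp, and the median of the 53 wide regions, these 3 included, was 1048 bp. Each of the 3 was wider than that median, the nearer MCL1 region only slightly. Together they made up 0.824% of the broad regions and 3.02% of the summed broad width, at 7090 bp. Place and width went together in this list, since the first 30 regions were all wide and the last wide one stood at place 76, so place adds little to width. The genes were chosen by the positions and widths of these regions, so the width ranks, places and shares are a description only. The narrow region at VMP1 stood at place 8 of 2792, and what the order stands for is not stated in the labels or headers.

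**Figure D2:**
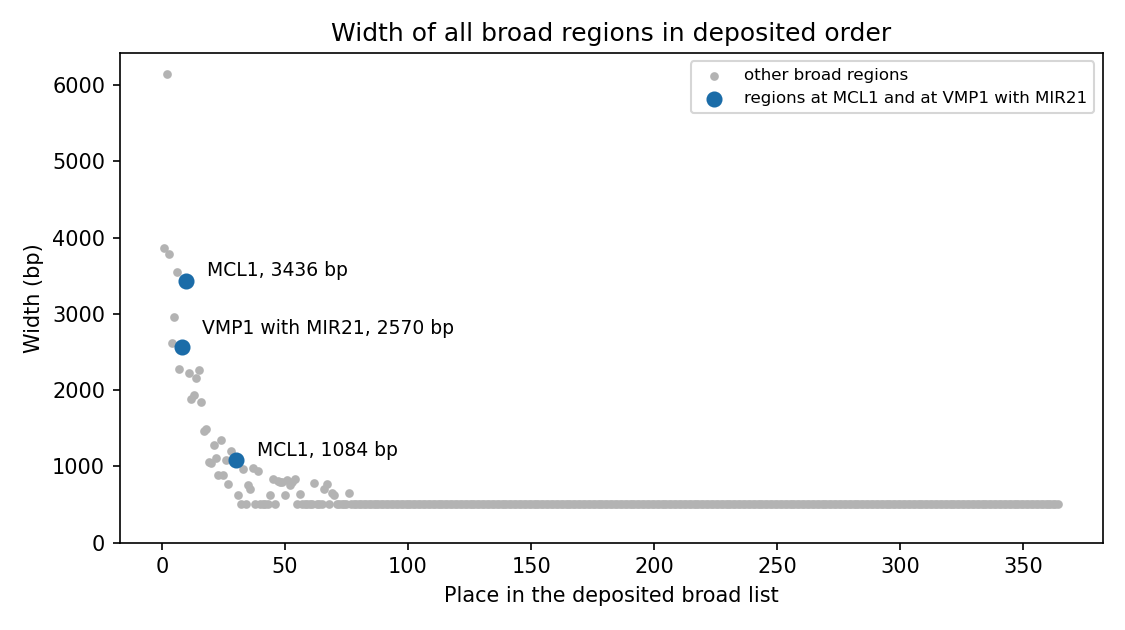
Width in bp of each of the 364 broad regions (y axis) against its place in the deposited list (x axis), with the regions at MCL1 and at VMP1 with MIR21 as large blue points and the others in grey. The 3 labelled regions, of 3436, 2570 and 1084 bp, lie on the steep left part, and 311 regions form the line at 500 bp.

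BCL2L1, on the minus strand of chr20:30252255-30310706, had its nearest regions on the downstream side, well outside the limit. A broad region of 500 bp, chr20:30193712-30194212 at place 198 of the broad list, lay 58043 bp from the span. A narrow region, chr20:30194819-30195083 at place 13 of the narrow list, lay 57172 bp from it. These 2 regions were 607 bp apart and did not overlap, unlike those at VMP1. COX4I2, a subunit gene of cytochrome c oxidase, and then ID1, an inhibitor of basic helix-loop-helix transcription factors, are the next protein-coding genes on this side in the gene table, so the 2 regions need not belong to BCL2L1. The hg19 positions of COX4I2 and ID1 were not used here. On the upstream side the nearest narrow region lay 201 kb away and the nearest broad region 18.5 Mb away.

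BCL2A1, on the minus strand of chr15:80253233-80263641, was the locus farthest from any region. Its nearest region was narrow, chr15:79848531-79848795, 404 kb downstream and late in its list, at place 1747. Upstream, a broad region of 500 bp, chr15:80879972-80880472, and a narrow region inside it, chr15:80880090-80880354, lay 616 kb away at places 71 and 32. Another 2 broad regions of 500 bp followed at 808 and 898 kb upstream. None of these was wide.

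**Figure D3:**
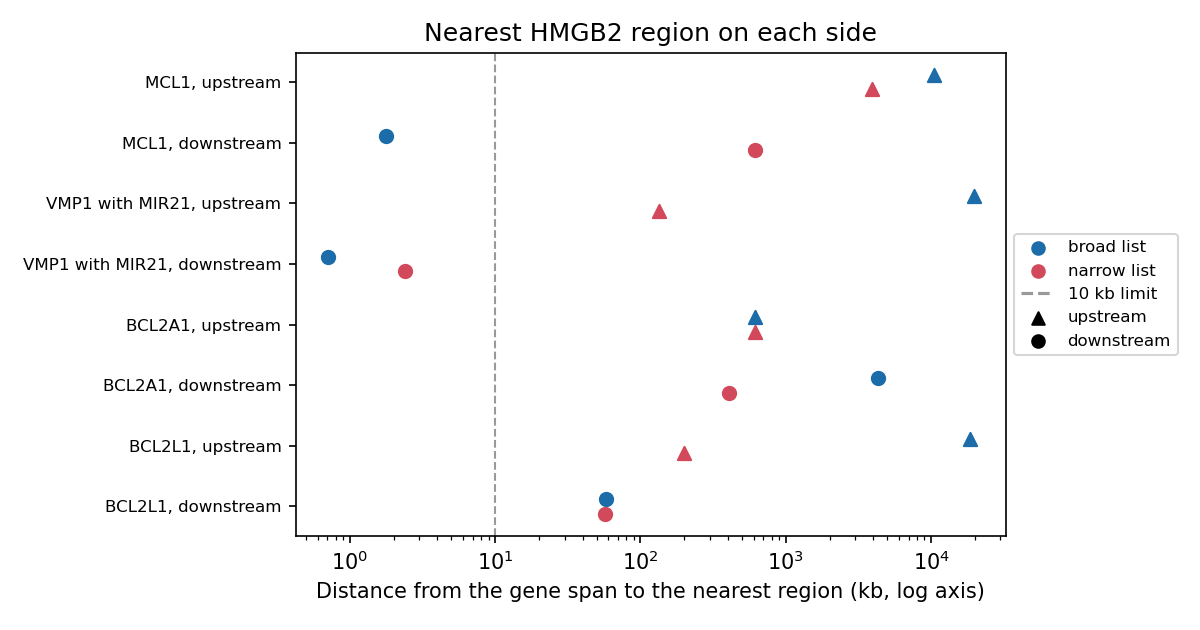
Distance in kb, on a log axis, from each gene span to the nearest broad (blue) and narrow (red) region upstream (triangles) and downstream (circles). Points left of the dashed line at 10 kb are the downstream broad regions of MCL1 and VMP1 with MIR21 and the narrow region of the latter, and the next nearest points are those of BCL2L1, at 57.2 and 58.0 kb.

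The 10 kb limit fell in a wide gap between these values. The region farthest inside it began 3744 bp from a gene span, and the nearest one outside it lay 57172 bp away. No count at the limit therefore turned on a few kb.

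The genes next to the downstream regions belong to the description of these places. In the RefSeq gene table for GRCh38.p14, the next gene downstream of MCL1 is the long noncoding RNA gene ADAMTSL4-AS1, and the next protein-coding one is ADAMTSL4, which codes for a matrix protein related to the ADAMTS proteases. Downstream of VMP1 the next protein-coding genes are TUBD1, which codes for delta-tubulin, and RPS6KB1, the S6 kinase of the mTOR pathway. The table was used for the order of genes only. Whether a region overlaps ADAMTSL4-AS1 or another neighbour in hg19 was not analysed here, so calling these regions downstream of MCL1 or VMP1 states a position and not a link to that gene.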

How the data were processed

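The data were HMGB2 ChIP-seq regions from 1 library of senescent and 1 of growing IMR90 cells, grouped by the cell condition in the labels. Bowtie 0.12.9, HOMER 1.0 and hg19 are named, without roles, per the submitters' processing notes. The sources used here do not give calling settings, filters, duplicate treatment or input. Per the file headers, the deposited values are the identifier, chromosome, start and end of each region. Start counting (from 0 or 1) is not stated, so starts may differ by 1 bp.

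Gene spans in hg19 were given with the member list. Members, lists and the rule for named genes (the 5 members, their nearest regions and neighbouring genes by order) were chosen with earlier results of these data known. Distance was edge to edge, width was end minus start, and sides followed the strand (from RefSeq tables, for MCL1 from background knowledge). Distance and side counting was tested on simulated data. Windows with a region gave the background. No test was run, since each condition has 1 library. Other BCL2 family genes, caspase inhibitors and reported miR-21 targets had been listed, but their hg19 positions were not used here, so they were not placed. Alternatives changed the distance, the part of each list, merging, the width and the start. Python 3.11.15, pandas 2.3.3, numpy 2.4.6 and matplotlib 3.10.9 were used.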

Additional observations from a re-analysis of the deposited data

How the results depend on the processing

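Among the alternatives, only the distance and the merging of neighbours changed the counts at the 4 loci. With regions required to overlap the gene span, the broad count, the narrow count, the summed broad width and the loci with a broad region were all 0. Every region lay beyond the span used for its gene, and longer annotated gene ends were not analysed. Within 100 kb, a distance chosen after seeing the data, 2 narrow regions and a summed broad width of 7590 bp were counted, with 4 broad regions at 3 loci, through the regions near BCL2L1. Within 5 or 50 kb and in the first 50% of each list, the values were 3 broad regions, 1 narrow region, 7090 bp and 2 loci. Regions over the smallest width alone gave 3 broad regions at 2 loci, the only values recomputed there. Starts counted from 0 gave 3 broad regions and 1 narrow region, again the only values recomputed. The list part and the width setting could not change these values, since the members stood early in their lists and the 3 broad ones were wide. With regions within 1 kb merged, the MCL1 pair became 1 and the broad count 2. No paired analysis was possible because the comparison has 1 library on each side and no test. Depth is unknown. A lack of regions at BCL2A1, BCL2L1 or inside the MCL1 and VMP1 spans thus does not show equal HMGB2 signal in both conditions.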
